A study of Homo sapiens with 9 samples.

Results

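The transcripts described here are 214 of the 20263 genes in a table of read counts from HaCaT, an established line of immortalised human skin keratinocytes. They were chosen by their counts: at most 3 in each of the 3 control libraries, and a group mean of at least 1 CPM (the count as a share of its library's total, on the usual fixed scale) both in cells laden with melanosomes and in laden cells treated with glabridin. Of 228 genes that met this, 14 were set aside because they belong to a list of 21 genes, called pigment cell genes here. Among the 21 are TYR, DCT, MLANA and SOX10, but also PDK4, a metabolic enzyme, and COL6A2, a fibroblast marker. The working name of the set calls them absent from control keratinocytes, which holds only in the sense of that limit: 122 had 0 counts in every control library, and 92 had some, with no more than 6 summed over the 3 libraries. All 214 are protein coding in the GENCODE annotation.

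Messenger RNA was sequenced from 9 libraries in 3 groups of 3: HaCaT cells without melanosomes (control), HaCaT cells given melanosomes (melanosome), and HaCaT cells given both melanosomes and glabridin, an isoflavan from licorice root (glabridin). Melanosomes are the organelles in which melanocytes make and store melanin, and keratinocytes take them up in skin. The study asked how glabridin affects their breakdown. The sources used here do not give the origin of the melanosomes, the dose or the exposure times. They also do not say whether replicates came from separate cultures, so that p-values reflect only how these libraries vary, and that variation may be technical.

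Melanocytes arise from the neural crest, an embryonic cell population that also gives rise to Schwann cells, peripheral neurons and parts of the face, and melanocytes and melanoma cells express many genes otherwise known from nerve tissue. MITF and SOX10 are the transcription factors that govern the melanocyte programme, MITF through E-box sequences such as CACGTG and the longer M-box TCATGTG. Keratinocytes share little of this programme.

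Library totals ran from 41793696 to 45839573 counts in control, 39653425 to 46690787 in melanosome and 42582054 to 46591852 in glabridin. The members together held 94, 73 and 87 counts in control replicates 1 to 3, a mean share of 0.000191% of all counts. The same genes held 0.231% ± 0.00266 (SD, n = 3) in melanosome and 0.193% ± 0.0436 (SD, n = 3) in glabridin. These values chose the members and are a description without a test. In bulk RNA of this kind, fewer cells of a type and less RNA per cell cannot be told apart. Counts from 1 to 49 were even in 69.9% to 72.2% of cases in the 9 libraries, against 48.7% to 51.1% of counts over 500, so that most control counts of members read 0 or 2. What part this has in the counts was not tested.

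The limits of the rule run through a continuum. Just inside, CRISPLD1 stood at 2.33 CPM in melanosome and 1.01 CPM in glabridin, HOXB2 at 1.19 and 1.01, and MCOLN2 at 2.26 and 1.03. Just outside, DLL3 stood at 0.998 CPM in melanosome and 1.08 in glabridin, LDHC at 2.18 and 0.983, and TP53TG3D at 1.42 and 0.982. A further 78 genes with as few control counts reached the minimum in melanosome alone and 9 in glabridin alone, and these are not members, so that genes found at this level in only 1 laden group are not described. At the control limit, 8 members had a highest control count of 3, and 48 genes had one of 4 and were outside.

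Glabridin replicate 2 stood apart from replicates 1 and 3 for these genes, and this touches every comparison between the laden groups. Summed over the members, the level was 2110, 2128 and 2149 CPM in melanosome replicates 1 to 3 and 1834, 2593 and 1638 CPM in glabridin replicates 1 to 3; these and all later CPM values use library sizes scaled by edgeR's trimmed mean of M values (TMM). The melanosome libraries lay within a narrow band, and the glabridin libraries lay on both sides of it. Replicate 2 was the highest glabridin library for 182 of the 214 members (85%), against 39.8% of all 13912 genes tested. Replicate 3 was the lowest for 134 members (62.6%), against 39.2% of all genes tested. The ratio of replicate 2 to the mean of replicates 1 and 3 had a median of 1.55 over members and ran from 0.667 to 2.61. The 14 genes set aside as pigment cell genes also had their highest glabridin sum in replicate 2. Their sums were 1032, 1522 and 999 CPM in glabridin and 1024, 1022 and 1027 CPM in melanosome. PDK4, a pyruvate dehydrogenase kinase, is 1 of these 14. It read 136, 115 and 107 CPM in melanosome and 332, 493 and 378 CPM in glabridin, which raises the glabridin sums. Of the 14, 10 had a log2 difference below 0, and the median of the 14 was -0.25. The members' sum was 2.06, 2.08 and 2.09 times that of the 14 in the melanosome libraries and 1.78, 1.70 and 1.64 times in the glabridin libraries. These ratios include PDK4, which held a larger part of the sum of the 14 in glabridin. Ratios without PDK4 were not computed, so a drop against the pigment genes proper is not shown.

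**Figure D1:**
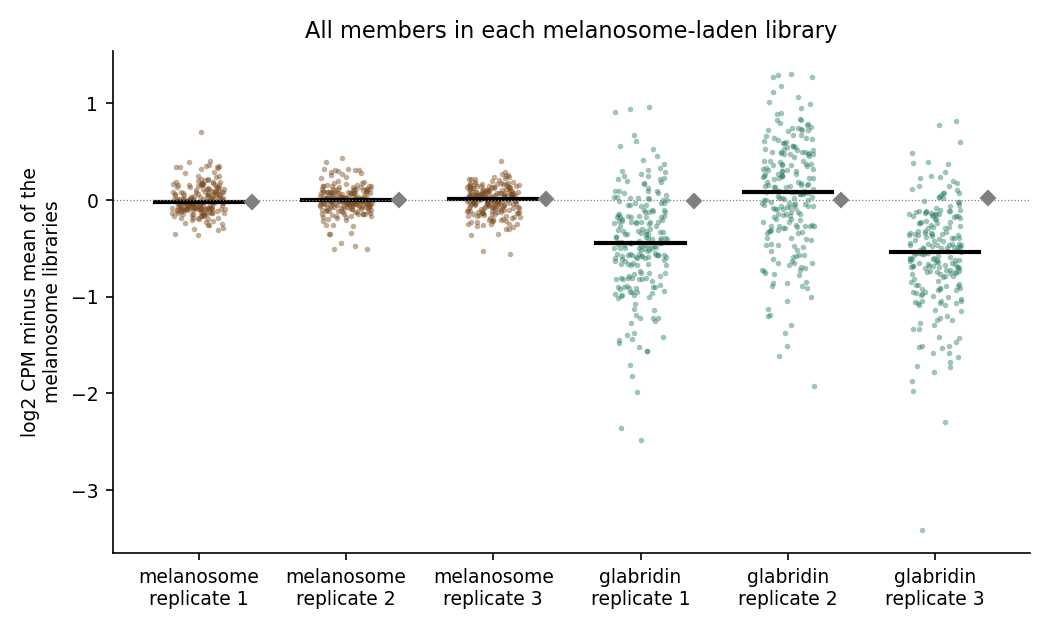
Each point is 1 member in 1 library, on the vertical axis as log2 CPM minus the log2 mean of the 3 melanosome libraries. Black bars are medians over the 214 members and grey diamonds medians over all genes tested: the member medians are -0.44, 0.08 and -0.54 in glabridin replicates 1 to 3, while the diamonds stay between -0.01 and 0.02 there.

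Among the members, the change per library relative to melanosome had medians of -0.44, 0.08 and -0.54 (log2) in glabridin replicates 1 to 3, and the pigment genes medians of -0.37, 0.12 and -0.49. The members' coefficient of variation between replicates had a median of 8.97% in melanosome and 28.7% in glabridin, against 6.30% and 13.7% over all genes tested. The spread between libraries was thus wider for the members than for genes at large in both laden groups, and mostly in glabridin. Genes were not matched for expression level here, and the part of low counts in this gap was not tested.

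Levels between members are compared in TPM, a relative transcript level corrected for transcript length. The median member had 2.74 TPM over the 6 laden libraries, 29 members reached a mean of 10 TPM in both groups, and 39 had a mean under 1 TPM. A handful of genes made up much of the total: the 5 members with most counts held 22.5% to 23.2% of member counts in the melanosome libraries and 30.4% to 34.6% in the glabridin libraries. TMEM163, a zinc transporter of vesicle membranes, was the highest member in melanosome, with 163 TPM. It was followed in melanosome by PCSK1N, an inhibitor of prohormone convertase, at 76.9 TPM, and A2M, the protease inhibitor alpha-2-macroglobulin, at 75.2 TPM. Then GYPC, a glycophorin of the red cell membrane skeleton, at 73.5 TPM, SLC16A6, a monocarboxylate transporter, at 73.3 TPM, BIRC7, an inhibitor of apoptosis also called livin, at 71.8 TPM, and DUSP23, a phosphatase, at 71.7 TPM came next. From PCSK1N to DUSP23, the replicate values of each gene overlapped those of the next in this order. In glabridin the order was A2M at 133 TPM ± 19.2, SLC16A6 at 106 TPM ± 12.2 and TMEM163 at 95.2 TPM ± 30.5 (SD, n = 3); the replicates of SLC16A6 and TMEM163 overlapped.

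**Figure D2:**
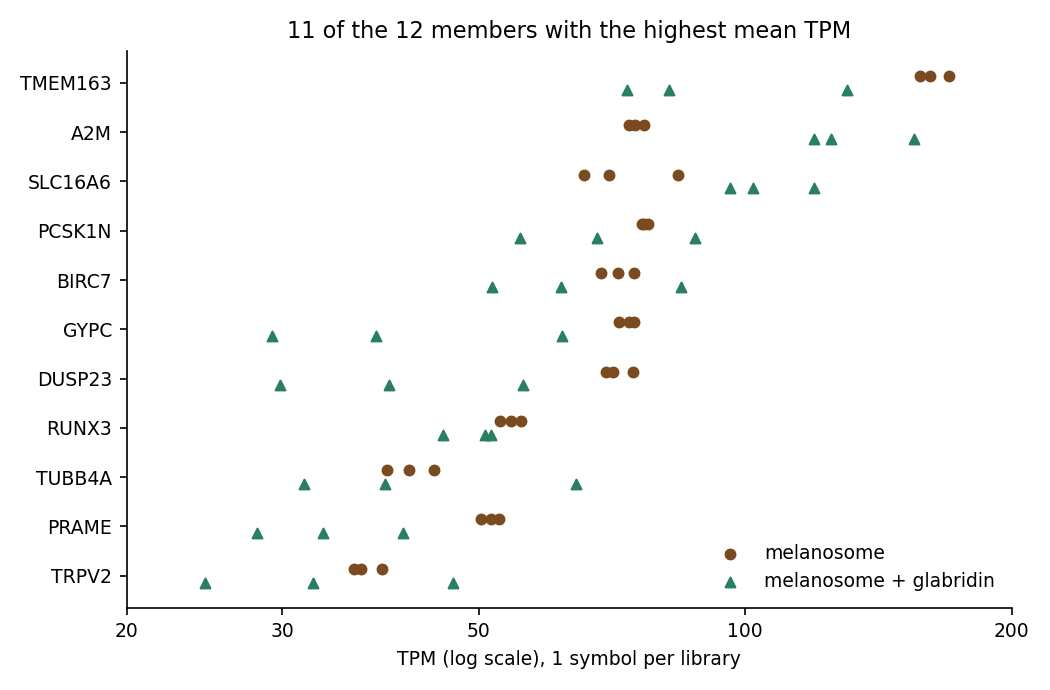
TPM on a log axis for 11 of the 12 members with the highest mean over the 6 laden libraries, 1 symbol per library, circles for melanosome and triangles for glabridin. A2M and SLC16A6 have every triangle to the right of every circle, TMEM163, GYPC, DUSP23, RUNX3 and PRAME every triangle to the left; TPM carry no TMM scaling, so overlap between groups can differ from that in CPM.

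TMEM163 lies on chromosome 2 (chr2:134455759-134719000 in GRCh38, minus strand), and its start falls in a stretch dense in CpG dinucleotides. It is shown because it has the highest mean TPM over the 6 laden libraries and a CpG-rich start. The 250 bases before the start (chr2:134719001-134719250, minus strand, GRCh38.p14, RefSeq) hold 40 CpG, given in capitals, written 5′ to 3′:
TMEM163: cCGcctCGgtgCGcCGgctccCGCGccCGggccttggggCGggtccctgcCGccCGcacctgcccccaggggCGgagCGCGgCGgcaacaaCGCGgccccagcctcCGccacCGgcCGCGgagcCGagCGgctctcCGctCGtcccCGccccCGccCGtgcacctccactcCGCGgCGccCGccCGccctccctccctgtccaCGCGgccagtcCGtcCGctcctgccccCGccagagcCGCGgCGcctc

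RefSeq gave a promoter window, from 250 bases before the start to 50 after it, for 157 of the 214 members and for 15272 genes of the table. The median member window held 27 CpG and had a GC content of 68%, against 22 CpG and 63% over all genes with a window. The M-box letters TCATGTG, searched on both strands, occurred in 2.55% of member windows (4 of 157; exact 95% binomial interval 0.698% to 6.39%) and in 2.25% of all. The 4 members that carry it are TRIM63, a muscle ubiquitin ligase of the MITF and SOX10 target list, BCL2A1, a BCL2-family survival gene of that same list, NUDT10, a hydrolase of inositol phosphates, and SULT1C2, a sulfotransferase. They are printed because they show the MITF word in place, 250 bases before each start, 5′ to 3′ in the direction of the gene, with TCATGTG in capitals; in SULT1C2 the word is on the other strand and reads CACATGA. The windows are chr1:26067631-26067880 (minus strand) for TRIM63, chr15:79971197-79971446 (minus strand) for BCL2A1, chrX:51331981-51332230 (plus strand) for NUDT10 and chr2:108288645-108288894 (plus strand) for SULT1C2, from RefSeq in GRCh38.p14:
TRIM63: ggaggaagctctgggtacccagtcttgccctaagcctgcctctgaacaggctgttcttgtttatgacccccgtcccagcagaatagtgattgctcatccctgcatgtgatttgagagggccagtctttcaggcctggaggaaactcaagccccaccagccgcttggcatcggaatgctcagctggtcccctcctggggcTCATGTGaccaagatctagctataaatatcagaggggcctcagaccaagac
BCL2A1: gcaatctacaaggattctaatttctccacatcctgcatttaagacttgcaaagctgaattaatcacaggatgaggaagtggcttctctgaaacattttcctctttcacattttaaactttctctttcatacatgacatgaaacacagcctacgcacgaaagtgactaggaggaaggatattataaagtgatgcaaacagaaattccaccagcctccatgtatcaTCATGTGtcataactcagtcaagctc
NUDT10: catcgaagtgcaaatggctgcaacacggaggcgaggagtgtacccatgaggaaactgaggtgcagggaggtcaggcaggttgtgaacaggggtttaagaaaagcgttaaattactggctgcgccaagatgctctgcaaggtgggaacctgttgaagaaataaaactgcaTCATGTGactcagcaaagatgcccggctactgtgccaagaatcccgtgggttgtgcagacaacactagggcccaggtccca
SULT1C2: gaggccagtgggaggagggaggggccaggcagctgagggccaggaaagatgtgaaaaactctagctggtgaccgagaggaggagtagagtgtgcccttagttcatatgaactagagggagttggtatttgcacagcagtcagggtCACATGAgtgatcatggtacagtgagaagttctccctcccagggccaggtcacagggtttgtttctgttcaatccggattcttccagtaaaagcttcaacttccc

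The first base of the word lies 51 bases before the start in TRIM63, 26 in BCL2A1, 81 in NUDT10 and 105 in SULT1C2. The shorter E-box CATGTG, which the M-box contains, was present in 9.55% of member windows and 8.32% of all, and CACGTG in 12.1% and 8.89%. Among the members with CACGTG were BIRC7, DUSP23, ANXA6 and DPP4. A SOX word, ACAAAG, was in 14% of member windows and 12.8% of all, a RUNX word, TGTGGTT, in 3.18% and 3.55%, and an AP-1 word, TGAGTCA, in 3.82% and 3.68%. The widest gap was in the GC-rich TFAP2 word GCCNNNGGC, in 40.1% of member windows and 28.5% of all, beside the higher GC content given above. TATAAA stood in 6.37% and 9.56%. These shares are descriptions: a match is not a binding site.

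The members' difference between glabridin and melanosome was tested with edgeR's quasi-likelihood test over all 13912 genes that passed a filter on low counts. The rule asks for at least 1 CPM in both groups, so it bounds how far a member could fall or rise. Of 214 members, all of which passed the filter, 54 changed at an adjusted p under 0.05 (25.2%; 43.9% of all genes tested): 49 fell (22.9%; 20.2% of all) and 5 rose (2.34%; 23.7% of all). The share that fell was near the background and the share that rose was below it. The 49 and the 5 all had glabridin libraries that did not overlap the melanosome libraries. Counting every member whose 3 glabridin libraries lay below the 3 melanosome libraries gave 69 (32.2%, against 24.2% of all genes), and 10 lay above (4.67%, against 26% of all). The median log2 difference of the members was -0.28, against 0.01 over all genes tested, and 156 members (72.9%) lay below 0, against 48.9%.

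Without glabridin replicate 2, 119 members changed (55.6%, against 52.1% of all genes): 114 members fell (53.3%, against 24% of all genes) and 5 rose (2.34%, against 28.1%); the median difference was then -0.51. Without glabridin replicate 3, 16 rose (25.4% of all genes did) and 43 fell (24% of all). Under a scaling chosen after the data were seen, in which the members and the pigment cell genes set the size of each laden library, 30 members changed (14%, against 21.8% of all genes): 16 fell (7.48%, against 2.72% of all genes), 14 rose (6.54%, against 19.1%), and the median member difference was 0.026, where the median of all genes moved to 0.38. All 16 and 5 of the 14 were also called with TMM. Scaling to the members and pigment genes places their centre near 0 by construction. The median of 0.026 is therefore not a result, and the calls under it are relative to that centre.

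**Figure D3:**
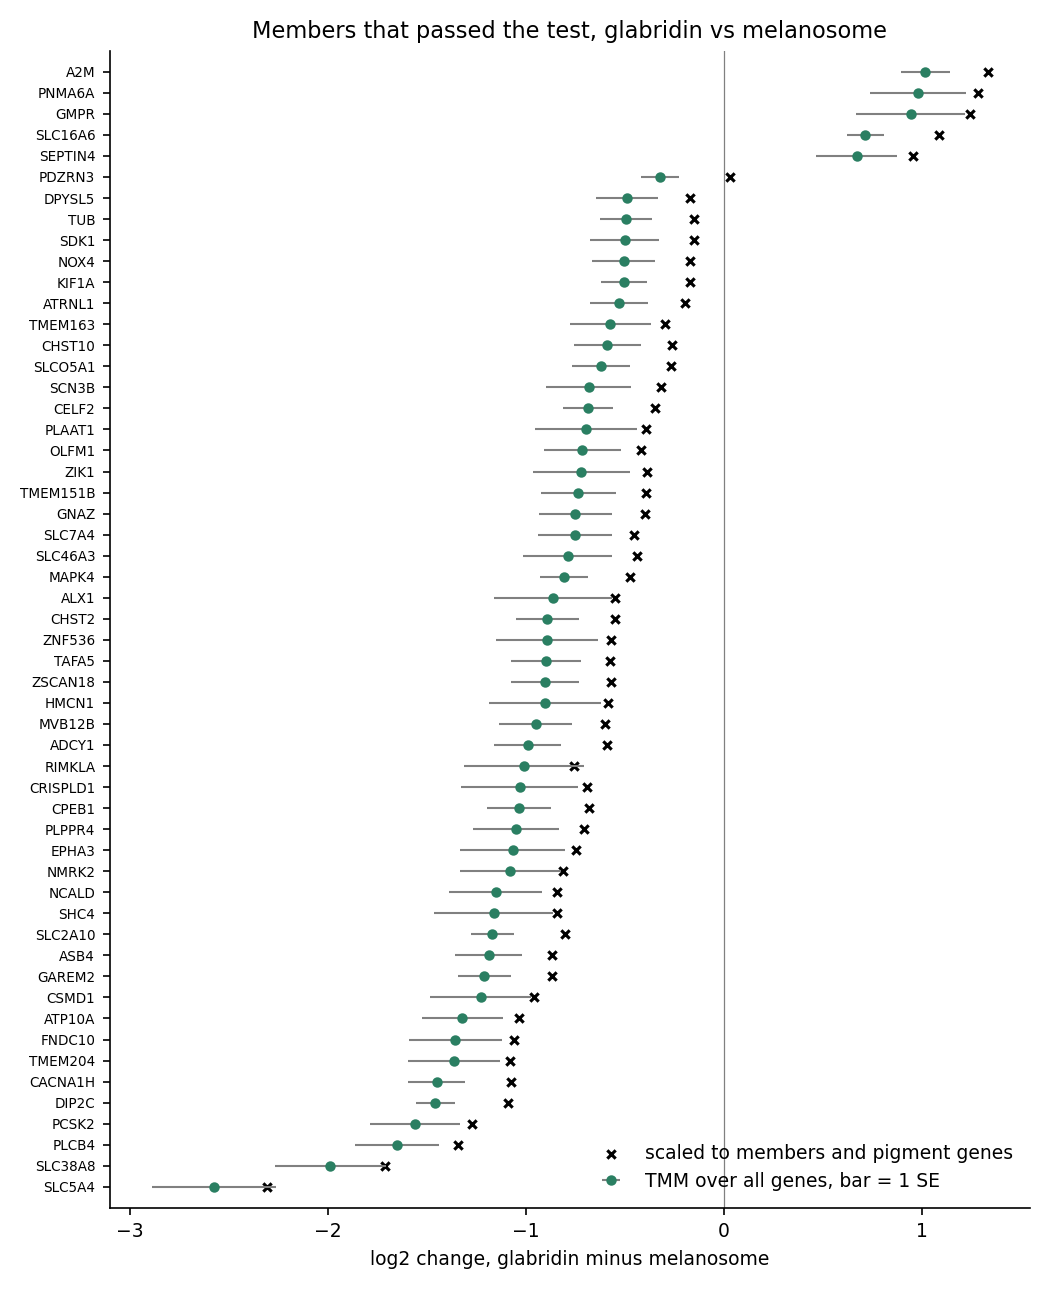
Log2 change from melanosome to glabridin for the 54 members that passed the test, circles with bars of 1 SE for TMM scaling over all genes and crosses for scaling to the members and pigment genes alone. The 5 rises, led by A2M, stay right of 0 under both scalings, and of the 49 falls PDZRN3 crosses 0, from -0.32 to 0.03.

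The roles below were assigned after names and values were seen, so their counts and medians are descriptions. For each role, the shares over all genes tested are 20.2% fell and 23.7% rose. Scaled to the members and pigment genes, these are 2.72% and 19.1%. Of the 29 channels and transporters among the members, 10 fell and 1 rose, with a median log2 difference of -0.49. Scaled to the members and pigment genes, 5 fell and 1 rose. The largest fall was in SLC5A4, a member of the sodium/glucose cotransporter family (chr22:32218476-32255341). It read 8.91, 8.89 and 11.2 CPM in the melanosome libraries and 1.64, 2.46 and 0.81 CPM in the glabridin libraries, a log2 change of -2.57 ± 0.32 (SE; edgeR adjusted p = 2.66e-04). All glabridin libraries were far below the lowest melanosome library. SLC38A8, an amino acid transporter, stood at 4.86, 4.97 and 5.20 CPM and fell to 0.898, 1.98 and 0.942 CPM (log2 -1.99 ± 0.28, edgeR adjusted p = 6.00e-04).

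CACNA1H, the pore subunit of a T-type calcium channel (chr16:1153121-1221772), read 26.9, 28.5 and 29.6 CPM in melanosome and 11.7, 9.17 and 10.2 CPM in glabridin (log2 -1.45 ± 0.14, edgeR adjusted p = 2.15e-05). Here glabridin replicate 2 was the lowest of its group, unlike for most members. SLC2A10, a glucose transporter, fell by 1.17 on the log2 scale, and ATP10A, a phospholipid flippase, by 1.32. TMEM163 had 105, 105 and 103 CPM in melanosome and 59.8, 100 and 50.8 CPM in glabridin, a log2 change of -0.57 ± 0.20 (edgeR adjusted p = 0.0423). Its second glabridin library was almost at the melanosome level, and its call was lost with any single library left out other than glabridin replicate 2.

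SLC16A6 (chr17:68267026-68291267) was the 1 transporter that rose. Its melanosome libraries had 112, 98.1 and 92.1 CPM and its glabridin libraries 160, 159 and 177 CPM (log2 0.71 ± 0.09, edgeR adjusted p = 1.59e-04), so the groups were apart and replicate 2 was level with replicate 1. TRPV2, a cation channel, had 34.5, 36.9 and 39.0 CPM in melanosome against 36.4, 55.3 and 26.0 CPM in glabridin, and the glabridin libraries lay on both sides of the melanosome libraries. Of the 2 lysosomal mucolipin channels, MCOLN2 had a log2 difference of -0.96 ± 0.38 (edgeR adjusted p = 0.0739) and MCOLN3 one of -0.68 ± 0.28 (edgeR adjusted p = 0.0750); both had non-overlapping groups and neither passed.

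The set holds 26 genes best known from neurons, synapses or myelin, of which 6 fell and none rose (2 fell and 1 rose when scaled to the members and pigment genes). PCSK2, a prohormone convertase (chr20:17226107-17484578), had 10.4, 8.84 and 9.17 CPM in melanosome and 2.83, 4.52 and 2.32 CPM in glabridin (log2 -1.56 ± 0.23, edgeR adjusted p = 6.85e-04). NCALD, a neuronal calcium sensor, PLPPR4, a lipid phosphatase-related protein of synapses, OLFM1, a secreted neuronal glycoprotein, KIF1A, an axonal kinesin, and DPYSL5, a collapsin response mediator, were the other 5 and fell by 1.15, 1.05, 0.71, 0.51 and 0.49 on the log2 scale. PCSK1N, whose product inhibits the related convertase PCSK1, did not follow PCSK2: it read 26.4, 28.0 and 27.7 CPM against 27.5, 37.4 and 21.3 CPM, with groups that overlapped. TUBB4A, a neuronal beta-tubulin, read 44.7, 49.7 and 53.2 CPM against 52.3, 90.9 and 40.2 CPM, and shares long stretches with other beta-tubulins, so that its count is uncertain. PMP22, a peripheral myelin protein gene, had a log2 difference of 0.33 ± 0.21 and did not pass.

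Among 16 signalling enzymes and adaptors, 6 fell and none rose (20.2% and 23.7% of all genes tested). Their median, -0.59, was the lowest of the role groups, which were set with values known. Under the scaling to members and pigment genes, 2 fell (2.72% of all genes). PLCB4, a phospholipase C coupled to receptors (chr20:9068763-9481242), had 4.57, 4.24 and 3.89 CPM in melanosome and 1.12, 1.78 and 1.16 CPM in glabridin (log2 -1.65 ± 0.21, edgeR adjusted p = 3.35e-04). The groups were well apart. GAREM2, an adaptor of growth factor signalling, fell from 10.8, 11.8 and 12.3 CPM to 5.81, 5.28 and 4.03 CPM (log2 -1.21 ± 0.14, edgeR adjusted p = 5.71e-05). ADCY1, an adenylyl cyclase that makes cyclic AMP, fell from 23.5, 23.9 and 26.4 CPM to 14.1, 9.42 and 13.6 CPM (log2 -0.99 ± 0.17, edgeR adjusted p = 9.25e-04), with glabridin replicate 2 the lowest library. The related ADCY2 had 32.4, 32.6 and 35.5 CPM against 25.7, 33.4 and 21.1 CPM and did not pass. MAPK4, an atypical MAP kinase, SHC4, an adaptor of receptor tyrosine kinases, and GNAZ, a G protein alpha subunit, fell by 0.81, 1.16 and 0.75 on the log2 scale. DUSP23 read 18.8, 20.1 and 21.3 CPM against 12.6, 18.8 and 8.98 CPM and did not pass (log2 -0.58 ± 0.23, edgeR adjusted p = 0.0725), and its log2 change was -0.89, past the threshold, without glabridin replicate 2.

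Of 23 metabolic enzymes, 6 fell and 1 rose, and 2 fell and 2 rose when scaled to the members and pigment genes. NMRK2, a nicotinamide riboside kinase of NAD synthesis, had 19.6, 19.9 and 18.9 CPM in melanosome and 8.30, 13.6 and 5.87 CPM in glabridin (log2 -1.08 ± 0.26, edgeR adjusted p = 0.00892). RIMKLA, an NAAG synthetase, fell by 1.01, and the sulfotransferases CHST2 and CHST10 by 0.89 and 0.59. NOX4, an NADPH oxidase, and PLAAT1, a phospholipase, fell by 0.51 and 0.69. GMPR, guanosine monophosphate reductase, rose from 1.49, 1.90 and 1.20 CPM to 3.03, 3.79 and 2.01 CPM (log2 0.94 ± 0.27, edgeR adjusted p = 0.0224); the groups came within a small gap, and its call was lost without melanosome replicate 1, melanosome replicate 3 or glabridin replicate 1. GYG2, a glycogenin, has a close pseudogene, so that its count is uncertain, and had a log2 difference of -0.42 ± 0.18 that did not pass.

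Of the 16 secreted and matrix proteins, 3 fell and 1 rose, of which the rise alone passed when scaled to the members and pigment genes. A2M (chr12:9067664-9116229) had the largest rise of any member: 124, 127 and 125 CPM in melanosome against 236, 310 and 215 CPM in glabridin (log2 1.02 ± 0.12, edgeR adjusted p = 2.56e-04). Its lowest glabridin library lay well above all melanosome libraries. TAFA5, a small secreted protein of the nervous system, HMCN1, the matrix protein hemicentin, and CRISPLD1, a cysteine-rich secretory protein, fell by 0.90, 0.90 and 1.03 on the log2 scale; the call of CRISPLD1 was lost without melanosome replicate 2, at -0.85. FBLN5, an elastic fibre protein, had 6.43, 6.33 and 7.45 CPM against 5.34, 11.6 and 4.58 CPM and no clear direction: its log2 difference of 0.08 was -0.44 without glabridin replicate 2. LAMC3, a laminin chain, did not pass either, at -0.14 ± 0.27.

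Among 17 transcription factors, 4 fell and none rose, and none passed when scaled to the members and pigment genes. RUNX3, known from T cells and neurons (chr1:24899511-24965121), was by far the most abundant, with 75.6, 81.5 and 84.1 CPM in melanosome and 85.5, 91.7 and 72.6 CPM in glabridin; the groups overlapped and the log2 difference was 0.05 ± 0.10. It is the 1 member among 16 lymphocyte markers, of which 5 were at 0 in all 9 libraries, CD2, TRAC, MS4A1 and PTPRC among them, and 7 passed the filter on low counts. ALX1, a homeobox gene of facial development, fell from 1.69, 2.67 and 1.63 CPM to 1.26, 1.28 and 0.745 CPM (log2 -0.86 ± 0.30, edgeR adjusted p = 0.0447), a call lost without any 1 of melanosome replicates 1, 2 and 3 and glabridin replicates 1 and 3. The zinc finger genes ZSCAN18, ZNF536 and ZIK1 fell by 0.90, 0.89 and 0.72. MSX1, a homeobox gene of the neural crest, had 4.88, 5.39 and 5.28 CPM against 4.38, 4.30 and 4.66 CPM and did not pass, although the groups did not overlap.

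The remaining roles held few calls. Of 7 survival and ubiquitin genes, ASB4, a substrate adaptor of ubiquitin ligases, fell from 12.9, 12.8 and 10.5 CPM to 5.43, 6.33 and 4.14 CPM (log2 -1.19 ± 0.17, edgeR adjusted p = 6.44e-04), and the ligase PDZRN3 fell by 0.32. BIRC7 had 35.2, 38.6 and 40.4 CPM against 37.2, 53.7 and 29.5 CPM, with groups that overlapped. Of 10 adhesion and guidance genes, EPHA3, an ephrin receptor, and SDK1, a synaptic adhesion protein, fell by 1.07 and 0.50. The RNA-binding proteins CELF2 and CPEB1 fell by 0.68 and 1.03 among 5 of that role. None of the 8 receptors passed, DPP4 and FGFR1 included, at log2 differences of 0.22 ± 0.20 and -0.02 ± 0.18.

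SEPTIN4, a septin of the cytoskeleton, rose from 10.2, 10.4 and 11.2 CPM to 15.3, 23.1 and 12.4 CPM (log2 0.67 ± 0.21, edgeR adjusted p = 0.0283); it was the 1 call among 11 cytoskeletal and muscle genes, and it was lost without any 1 melanosome library or glabridin replicate 1. GYPC, of the same role, had 48.8, 52.6 and 53.4 CPM against 30.5, 52.3 and 22.1 CPM and did not pass (log2 -0.56 ± 0.26). PRAME, a melanoma-associated antigen of the cancer-testis family, read 58.8, 58.9 and 60.6 CPM against 43.7, 56.9 and 34.9 CPM (log2 -0.40 ± 0.15, edgeR adjusted p = 0.0547). The groups did not overlap, and PRAME passed without glabridin replicate 2, at -0.60. It was the 1 member among 58 measured cancer-testis antigens, of which 24 were at 0 in all 9 libraries. PNMA6A, a retroelement-derived gene with near-identical copies on the X chromosome, rose from 1.26, 1.41 and 1.57 CPM to 2.78, 3.59 and 2.01 CPM (log2 0.98 ± 0.24, edgeR adjusted p = 0.0110), a level uncertain for that reason and a call lost without glabridin replicate 1.

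Among 42 members of other or uncertain function, 8 fell and none rose (4 and 4 when scaled to the members and pigment genes). DIP2C, a disco-interacting protein homologue (chr10:274190-689668), had the lowest adjusted p of any member, 8.54e-06 by edgeR, with 18.8, 18.1 and 17.7 CPM in melanosome and 6.87, 6.31 and 6.70 CPM in glabridin (log2 -1.46 ± 0.10). Its glabridin libraries agreed closely and replicate 2 was the lowest. TMEM204, a junctional membrane protein, fell from 11.1, 13.7 and 14.2 CPM to 4.8, 6.96 and 3.46 CPM, and FNDC10, a fibronectin-domain protein, from 2.87, 2.98 and 2.99 CPM to 0.965, 1.58 and 0.920 CPM, each with a log2 change of -1.36 ± 0.23 (edgeR adjusted p = 0.00162 and 0.00176). CSMD1, a complement-regulatory membrane protein, fell by 1.23, and MVB12B, a subunit of the ESCRT-I sorting complex, by 0.95. TMEM151B, ATRNL1 and TUB, the last a ciliary trafficking protein, fell by 0.73, 0.53 and 0.49.

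**Figure D4:**
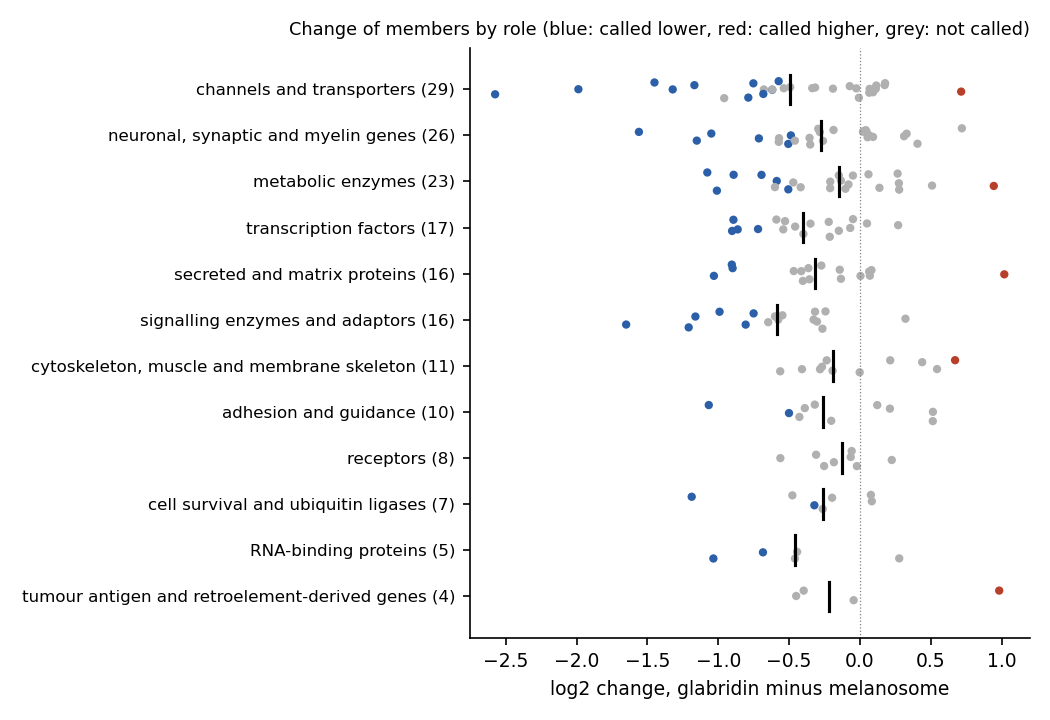
Log2 change of each member from melanosome to glabridin, 1 point per member, in 12 role groups with the number of members in brackets; a black bar is the group's median. Signalling enzymes and channels have the lowest medians, -0.59 and -0.49, and receptors the highest, -0.12, with no call. Roles were assigned after values were seen.

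The place of glabridin replicate 2 varied among members. Of the 214 members, 193 were higher in glabridin replicate 2 than in the mean of replicates 1 and 3, and 21 were not. CACNA1H, DIP2C and ADCY1 are examples of a fall present to the same or a greater extent in replicate 2, and SLC5A4 and SLC38A8 of a fall in all 3 libraries with replicate 2 the highest.

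**Figure D5:**
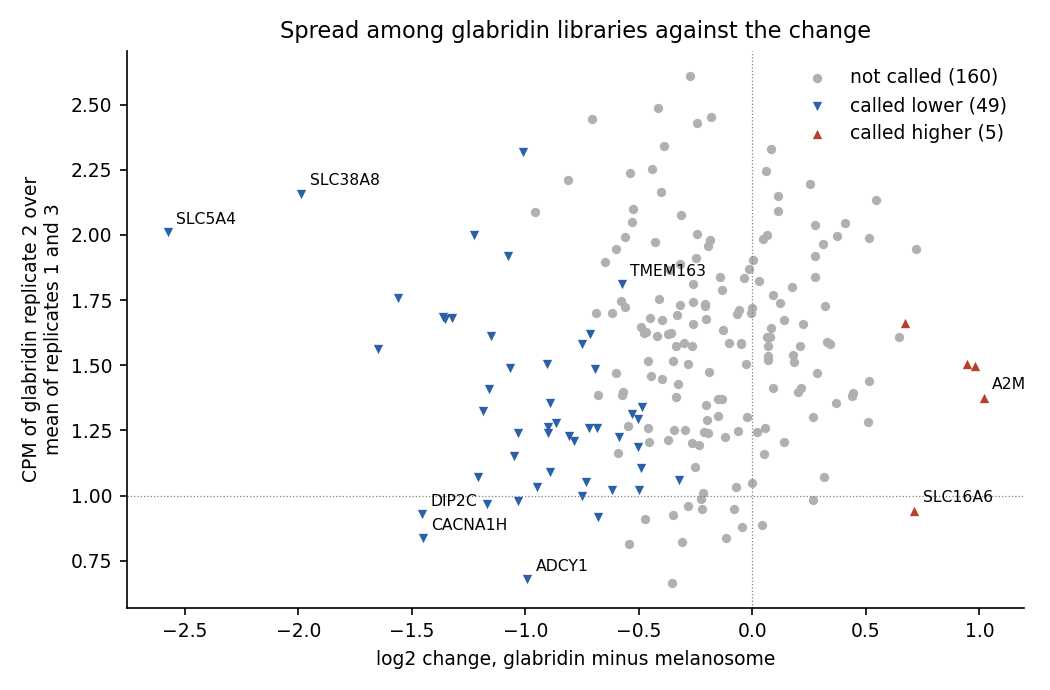
Each point is 1 member, with the log2 change from melanosome to glabridin on the horizontal axis and the CPM of glabridin replicate 2 divided by the mean of replicates 1 and 3 on the vertical axis. Most points lie above 1, the median being 1.55, and DIP2C, CACNA1H, ADCY1 and SLC16A6 lie below it.

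Against lists of known cell type markers, the set had 3 of 25 Schwann cell and neural crest markers, PMP22 and MSX1 among them. Membership in a list is bounded by the limit on control counts, which 15 of these 25 markers met. Of 54 known MITF and SOX10 targets, 5 were members, BCL2A1, TRIM63, BIRC7 and GYG2 among them, and none of the 5 passed. Of these 54, 24 met the limit on control counts, and 11 were among the genes left out by name. Over all 50 tested genes of the target list, 18 fell and 4 rose. Among all genes tested, 20.2% fell and 23.7% rose. Of 127 listed channels and transporters 15 were members, of which 5 fell and 1 rose; of 133 transcription factors measured, 5 were members and 1 of them fell. Of the transcription factors, 40 met the limit on control counts, and 6 were among the genes left out by name. Summed melanocyte markers, 22 genes including 13 set aside by the rule, ran from 205 to 216 CPM in control, 3671 to 3822 in melanosome and 2293 to 4194 in glabridin. Summed keratinocyte markers, 16 genes, ran from 15030 to 15111 CPM in control, 12216 to 13091 in melanosome and 10186 to 12761 in glabridin. Among other lists, summed from control to melanosome to glabridin libraries, 25 Schwann cell and neural crest markers ran from 441 to 460, 726 to 762 and 611 to 751 CPM. The 17 fibroblast markers ran from 85.1 to 88.4, 120 to 131 and 115 to 185 CPM. The 14 neuronal markers ran from 49 to 53.3, 82.9 to 85.2 and 107 to 123 CPM, and the 15 myeloid markers from 58.2 to 61.9, 71.4 to 79.5 and 109 to 124 CPM. The 12 endothelial markers ran from 42.2 to 44.0, 38.5 to 44.7 and 27.4 to 44.6 CPM. The 16 lymphocyte markers ran from 2.08 to 2.94, 80.8 to 90.5 and 76.5 to 99.8 CPM. In melanosome the member RUNX3 alone held 75.6 to 84.1 CPM of the lymphocyte sum. From control to melanosome, where the members were higher by the rule, the melanocyte, neural crest, fibroblast, neuronal, myeloid and lymphocyte sums were higher. The keratinocyte sum was lower, and the endothelial sums overlapped. The part of these sums in the members' differences was not tested.

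Some members were neighbours in the genome. Ordering all genes of the table by position, 14 adjacent pairs consisted of genes that met the rule, and 21 members stood in them. How many such pairs other sets of this size hold was not computed, so the count is a description. On chromosome 15, ATP10A read 16.3, 16 and 17.3 CPM in melanosome and 5.88, 9.09 and 4.93 CPM in glabridin (log2 -1.32 ± 0.20, edgeR adjusted p = 9.81e-04), and the pigment gene OCA2 on the same chromosome also fell (log2 -1.14 ± 0.14, edgeR adjusted p = 2.81e-04). GABRG3, a GABA receptor subunit gene that lies next to OCA2 at a distance of 213 kb, had a log2 difference of -0.49 ± 0.22 that did not pass.

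NOX4 lies 28.6 kb from TYR, the tyrosinase gene, on chromosome 11: NOX4 fell by 0.51 on the log2 scale, and TYR had a difference of 0.08 ± 0.16 that did not pass. ASB4 lies 43.3 kb from PDK4, the pyruvate dehydrogenase kinase gene among those set aside, on chromosome 7. The neighbours changed in opposite directions, ASB4 by -1.19 ± 0.17 and PDK4 by 1.75 ± 0.15 (log2). Other neighbouring members were MSX1, CYTL1 and STK32B on chromosome 4, BVES and POPDC3, both Popeye-domain genes, on chromosome 6, and PNMA3 and PNMA6A on chromosome X. By chromosome, X held 7.48% of members and 4.15% of the table, 15 held 6.07% and 2.99%, and 10 held 6.07% and 3.60%. Shares below the table's were seen on several chromosomes. Chromosome 16 held 2.34% of members and 4.27% of the table, 14 held 2.34% and 4.04%, and 9 held 2.34% and 3.82%. Each of these held 5 members. Chromosome 11 held 4.67% and 6.41%, 17 held 4.21% and 5.84%, and 7 held 3.27% and 4.87%. No test was made. The members' exons had a median summed length of 5052 bases, against 5061 over the genes tested.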

How the data were processed

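Counts and TPM per gene for 9 HaCaT libraries (3 control, 3 melanosome, 3 glabridin) were taken as the authors deposited them in tables of the whole series; 9 FPKM columns were not used. Per the labels' protocols, libraries were poly(A) selected, strand marked with dUTP and read as pairs. Per the submitters' processing notes the build is hg38; the aligner, counter, annotation and use of strand in counting were not given in the sources used here. Groups and replicate numbers come from the sample titles.

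The deposited counts went into edgeR 4.0.16 under R 4.3.3 (TMM, filterByExpr, quasi-likelihood F test, all 9 libraries in 1 fit, no block), with Benjamini-Hochberg adjustment over 13912 genes and a threshold of 0.05. TPM as deposited by the authors served to compare genes and, as log2(TPM + 1) with limma 3.58.1, as an alternative; DESeq2 1.42.0, other scalings, filters and left-out libraries were the others. The fit was checked on simulated data with the same spread for all genes and no library set apart. That check does not cover the wider spread of the members in glabridin. Gene coordinates are from the GENCODE annotation of GRCh38, promoter windows from RefSeq.

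The members and gene lists were chosen with earlier results of these data known. Genes named by rule were the 12 highest members by TPM, up to 8 largest rises and falls among called members, the 3 highest members of each gene list, the 3 nearest to the limits, and the members with most control counts (ALDH1L2, GAREM2, WDR72 and EFHD1, each 6 counts). Some genes that this rule or the lists would name are not reported here. The other members named, and the assignment of 172 members to 12 roles, were chosen after names and values were seen. Replicates sharing a number were checked for pairing: correlations of their deviations from the group means were -0.202, 0.0997 and -0.383, so the numbers were not taken to pair libraries.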

Additional observations from a re-analysis of the deposited data

How the results depend on the processing

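The main counts of 5 members that rose and 49 that fell from melanosome to glabridin, with a median log2 difference of -0.28, moved as follows. Scaling by library totals alone gave 82 falls (32.9% of all genes fell; the all-gene median moved to -0.17) and limma on log2(TPM + 1) gave 115 (34.5%; -0.13). Scaling to the members and pigment genes, an alternative added after seeing the data, gave 14 rises (19.1% of all genes) and 16 falls (2.72%). Its median was 0.026, the 1 alternative that turned the median's direction. That scaling sets the members' centre near 0 by construction, so the turn is not a result. The 122 members with 0 counts in every control library gave 28 falls (in the same fit, where 20.2% of all genes fell and 23.7% rose) and held 0.118% of counts in melanosome and 0.101% in glabridin. The 145 members with at least 2 CPM in both groups gave, in that fit, 3 rises and 31 falls. As a share of the TPM total the members held 0.190% in melanosome. Leaving out 1 library at a time gave 3 to 16 rises and 34 to 114 falls; the highest counts came without glabridin replicate 3 and replicate 2 respectively, and over these fits 14.5% to 28.1% of all genes rose and 15.6% to 24% fell. With the replicate number as a block there were 6 rises (21.4% of all genes), 50 falls (18.3%) and a median of -0.31. Among single genes, FBLN5 had log2 differences of -0.44 to 0.32 over the left-out libraries, turning below 0 without glabridin replicate 2. Of 41 members named by rule, 18 were called, and 11 of these were called under all 18 settings: A2M, SLC16A6, SLC5A4, SLC38A8, PLCB4, PCSK2, DIP2C, CACNA1H, TMEM204, FNDC10 and GAREM2. A difference that did not pass the test is not shown to be absent.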
